A study of Homo sapiens with 12 samples.

Results

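Across the H3K4me2 peak lists of U-937 cells, 482 regions were narrow in vehicle-treated cells and broad after combined treatment with all-trans retinoic acid (ATRA) and Corin. Joining all peaks that overlapped or touched gave 84577 regions, and 43264 of them had at least 1 peak from every list. In 33060 of these the widest DMSO peak was under 2000 bp, and the 482 members were those whose widest combination peak reached at least 4000 bp, or 1.46% of the narrow regions. The DMSO and combination widths chose the members, so both are given as descriptions. The ATRA and Corin widths were not used by the rule.

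U-937 is an established human line of monocytic leukaemia cells, labelled acute myeloid leukaemia (AML). Over 24 hours, cultures were given DMSO as the vehicle, 0.1 µM ATRA, 0.1 µM Corin, or the combination of 0.1 µM ATRA with 0.1 µM Corin. Each treatment had 2 libraries of chromatin immunoprecipitation for H3K4me2 and 1 input library. Each treatment is represented by 1 pooled peak list, with 65172 peaks (DMSO), 66385 (ATRA), 73997 (Corin) and 83969 (combination). The spread between replicates is therefore unknown, no p-value is given, and every difference is one between these lists. Shares are given with 95% Wilson intervals, which reflect counting error alone. Of 8 monocytic marker genes, 8 had a DMSO peak within 1 kb of their start site, as had 0 of 4 epithelial, 1 of 4 T cell, 2 of 4 B cell, 1 of 4 erythroid and 2 of 4 fibroblast markers.

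H3K4me2 is dimethylation of lysine 4 of histone H3, a mark of active and poised promoters and enhancers. LSD1, a demethylase of the CoREST corepressor complex, removes methyl groups from this lysine, and histone deacetylases of the same complex remove acetyl groups. Corin is a synthetic compound that inhibits both activities. ATRA is the ligand of the retinoic acid receptors, which bind DNA as heterodimers with retinoid X receptors at direct repeats of a short half-site, and ATRA promotes differentiation of myeloid leukaemia cells. Broad domains of H3K4 methylation are known from genes that define a cell type.

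Sequence is shown first at the 3 members whose combination summit lay near a direct repeat with a spacer of 5 bases (DR5), the classical retinoic acid response element, and for which a window could be shown. Each window spans 300 bases centred on the summit, on the plus strand of GRCh38. Capitals mark the letters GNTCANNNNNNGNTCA on either strand and, in the MYO9B window, also a match to AATCNNNGC, the core bound by the LSD1-recruiting repressor GFI1. The windows are chr1:12150979-12151278 near TNFRSF1B, chr19:17109836-17110135 in MYO9B and chr5:111510203-111510502 near STARD4.

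TNFRSF1B: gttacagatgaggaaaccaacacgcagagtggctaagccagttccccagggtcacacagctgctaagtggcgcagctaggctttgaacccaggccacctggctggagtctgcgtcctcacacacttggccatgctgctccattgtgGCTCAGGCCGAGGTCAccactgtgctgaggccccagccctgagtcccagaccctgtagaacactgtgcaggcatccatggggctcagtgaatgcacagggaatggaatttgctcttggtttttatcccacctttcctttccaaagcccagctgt
MYO9B: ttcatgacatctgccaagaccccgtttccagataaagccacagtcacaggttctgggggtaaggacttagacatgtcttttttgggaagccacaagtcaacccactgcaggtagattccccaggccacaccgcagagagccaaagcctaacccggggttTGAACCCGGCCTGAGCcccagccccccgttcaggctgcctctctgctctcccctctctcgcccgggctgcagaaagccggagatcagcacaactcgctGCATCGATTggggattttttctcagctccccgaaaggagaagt
STARD4: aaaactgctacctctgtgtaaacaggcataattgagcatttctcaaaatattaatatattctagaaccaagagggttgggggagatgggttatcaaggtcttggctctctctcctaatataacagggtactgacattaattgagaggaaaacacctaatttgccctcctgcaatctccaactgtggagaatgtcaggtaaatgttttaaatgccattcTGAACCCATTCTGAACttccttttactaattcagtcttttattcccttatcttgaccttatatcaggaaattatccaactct

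The widths at these members set the 2 single drugs side by side. The TNFRSF1B member (chromosome 1, 12147933 to 12154247, outside genes; TNFRSF1B encodes a tumour necrosis factor receptor) had a widest peak of 1810 bp with DMSO, 4002 bp with ATRA, 5882 bp with Corin and 6315 bp with the combination. At MYO9B, which encodes an unconventional myosin, the widths were 1759, 2115, 4093 and 4647 bp in the same order. At STARD4, which encodes a lipid transfer protein, they were 1914, 2441, 3304 and 4672 bp. The other DR5 members were SEMA4B, with 1291, 1983, 2605 and 6702 bp, and MTUS1, with 1316, 1138, 4335 and 4055 bp. Corin gave the wider single-drug peak at all 5, as it did in 70.5% of all members and 58.6% of all narrow regions.

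Windows are also shown for members at 2 genes that mark monocytic differentiation or the retinoid response. TGM2 (chr20:38167951-38168250) encodes transglutaminase 2, a retinoid-induced enzyme, and ITGAM (chr16:31260213-31260512) encodes the integrin CD11b. Capitals mark a PU.1 match (GAGGAAGT) and a C/EBP match (TTGCNNAA) in TGM2, and a RUNX match (TGTGGT) in ITGAM, on either strand. Windows that hold a searched motif were preferred in this choice, so the matches do not show how common the letters are.

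TGM2: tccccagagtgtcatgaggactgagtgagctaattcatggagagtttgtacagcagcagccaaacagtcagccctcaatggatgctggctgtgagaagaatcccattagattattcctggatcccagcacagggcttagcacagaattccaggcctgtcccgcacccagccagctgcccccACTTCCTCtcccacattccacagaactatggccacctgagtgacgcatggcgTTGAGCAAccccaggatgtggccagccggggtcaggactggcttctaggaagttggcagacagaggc
ITGAM: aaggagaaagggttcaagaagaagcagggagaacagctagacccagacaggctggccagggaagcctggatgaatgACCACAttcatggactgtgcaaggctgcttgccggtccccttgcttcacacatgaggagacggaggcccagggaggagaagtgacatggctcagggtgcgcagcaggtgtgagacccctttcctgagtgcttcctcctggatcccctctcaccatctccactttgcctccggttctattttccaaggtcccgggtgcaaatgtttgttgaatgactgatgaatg

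A direct repeat with a spacer of 2 bases (DR2, letters GNTCANNNGNTCA) is another element of the retinoic acid receptors. It was found in 29 members (6.02%, 4.22 to 8.51%) within the 300 bases around the combination summit, compared with 4.33% of the narrow regions outside the set. For 25 of the 29, the 61 bases centred on the repeat matched those of another member at 80% or more of the positions, and the median of the best identities was 88.5%. Such copies share their sequence and are not separate examples of the element.

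DR5 letters were found in 5 members (1.04%, 0.444 to 2.41%) and in 0.795% of the other narrow regions. The GFI1 core was found in 23.0% of the members (19.5 to 27.0%) and 20.1% of the others, RUNX letters in 19.5% (16.2 to 23.3%) and 22.0%, and AP-1 letters (TGANTCA) in 8.51% (6.33 to 11.3%) and 10.2%. For these motifs the share in other narrow regions lay within the members' interval. Letters of the myeloid factors PU.1 and C/EBP were less frequent in the members, at 1.45% (0.705 to 2.97%) against 3.36% and 12.9% (10.2 to 16.1%) against 16.3%. This separation was not kept in windows of 500 bases, where the shares were 5.19% (3.54 to 7.54%) against 7.46% for PU.1 and 24.5% (20.9 to 28.5%) against 28.3% for C/EBP. Some windows with DR2 letters also held the GFI1 core, among them those of GCNT2 and NAA16, though not that of RGS18. Similarity between windows was not measured for the GFI1 core, so copies were not set apart. A match says only that the letters are present in the window.

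The peak widths of the members are described next. In the DMSO list the widest peak of a member ranged from 213 to 1999 bp, with a median of 1568.5 bp and an interquartile range of 1216 to 1793 bp. With ATRA the median was 2348 bp (238 to 6836 bp, interquartile range 1802 to 3281 bp). With Corin the median was 3067.5 bp (460 to 10002 bp, interquartile range 2236 to 4084 bp). With the combination it was 4704.5 bp (4001 to 11450 bp, interquartile range 4274 to 5474 bp). The interquartile ranges of the single drugs lay above the DMSO median and below the combination median, and overlapped each other. In the 32578 other narrow regions the medians were 829 bp with DMSO, 1015 bp with ATRA, 1104 bp with Corin and 1240.5 bp with the combination.

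**Figure D1:**
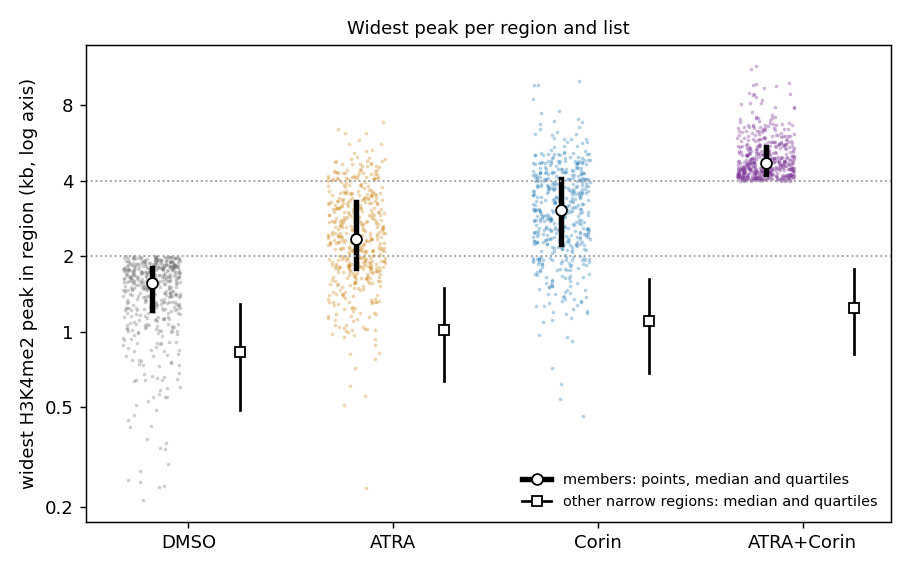
Widest H3K4me2 peak (y axis, kb, log scale) in the 4 lists (x axis). Points are the 482 members, circles and thick bars their medians and interquartile ranges, and squares and thin bars those of the other narrow regions. The DMSO and combination distributions are bounded at 2000 and 4000 bp by the rule, while the ATRA and Corin distributions were free and have medians of 2348 and 3067.5 bp.

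The thresholds cut through continuous distributions. The members nearest the DMSO limit were RANBP1 at 1999 bp and DAPK1 at 1997 bp, and the regions just outside it were KIAA0513 at 2001 bp and RUNX3 at 2002 bp. At the combination limit, CDC42EP3 at 4001 bp and PHLPP1 at 4003 bp were inside, and a SMAD3 region at 3999 bp and CDH22 at 3997 bp were outside. The DMSO width lay between 1800 and 2000 bp in 116 members (24.1%), and the combination width lay between 4000 and 4400 bp in 157 (32.6%).

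The same rule was applied with each single drug in place of the combination. A DMSO peak under 2000 bp was met by an ATRA peak of at least 4000 bp in 82 regions and by a Corin peak of this width in 204 regions, compared with 482 for the combination. The opposite change, from a DMSO peak of at least 4000 bp to a treated peak under 2000 bp, was found in 7 regions for ATRA, 6 for Corin and 11 for the combination. Peaks of at least 4000 bp made up 2.53% of all DMSO peaks, and this share was 3.43% with ATRA, 3.97% with Corin and 4.44% with the combination. Relative to DMSO, the background recovered from the deposited fold and p-values was 1.02 with ATRA, 1.10 with Corin and 1.20 with the combination, a measure of H3K4me2 depth. Its part in the widths was not tested.

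Each single drug was then compared with DMSO within the members. Corin widened the widest peak at least 2-fold in 265 members (55.0%, 50.5 to 59.4%), compared with 18.9% of all narrow regions. ATRA did so in 161 members (33.4%, 29.3 to 37.7%), compared with 13.7% of all narrow regions. The median ratio to DMSO was 2.13 with Corin, 1.64 with ATRA and 3.24 with the combination. Some widening with Corin was present in 473 members (background 76.2%) and with ATRA in 441 (background 71.8%). Because the members' DMSO peaks were wider than those of other narrow regions, the shares were also taken over 7444 other narrow regions with a DMSO width in the members' interquartile range. There, 4.12% widened at least 2-fold with Corin and 2.85% with ATRA. The members' shares are over all 482 members, also those outside this range, so the match in width is partial. The number of DMSO peaks was not matched, with a median of 3 per member and 1 per other narrow region. These width-matched regions exclude the members, and all ratios share the DMSO list that the rule also read.

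Corin and ATRA did not widen the same members to the same degree. At least 2-fold widening occurred with both drugs in 111 members, with Corin only in 154, with ATRA only in 50 and with neither in 167. Over all narrow regions these shares were 7.95%, 10.9%, 5.79% and 75.3%, compared with 23.0%, 32.0%, 10.4% and 34.6% of the members. The Corin peak was wider than the ATRA peak in 340 members (70.5%) and the ATRA peak was wider in 142. Among the other narrow regions of matched DMSO width, the Corin peak was the wider in 59.9%. A width of 4000 bp or more was reached with Corin in 135 members (28.0%, background 0.617%) and with ATRA in 63 (13.1%, background 0.248%). Both single drugs reached it in 28 members (5.81%, background 0.0938%) and neither in 312 (64.7%, background 99.2%).

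The combination peak was wider than both single-drug peaks in 427 members (88.6%), compared with 50.4% of the other narrow regions. Its gain over DMSO exceeded the sum of the gains with ATRA and Corin in 315 members (65.4%), compared with 45.5% of the other narrow regions and 48.0% of those of matched DMSO width. The thresholds on the DMSO and combination widths favour both counts among the members, and nothing is read from them. In 55 members a single drug gave a peak at least as wide as the combination. The order DMSO, ATRA, Corin, combination from narrowest to widest was found in 265 members (55.0%) and in 19.5% of all narrow regions, and the rule fixed its first and last widths. Both single-drug peaks stayed under 2000 bp in 48 members (9.96%), compared with 82.7% of all narrow regions. In these 48 members only the combination list held a broad peak.

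**Figure D2:**
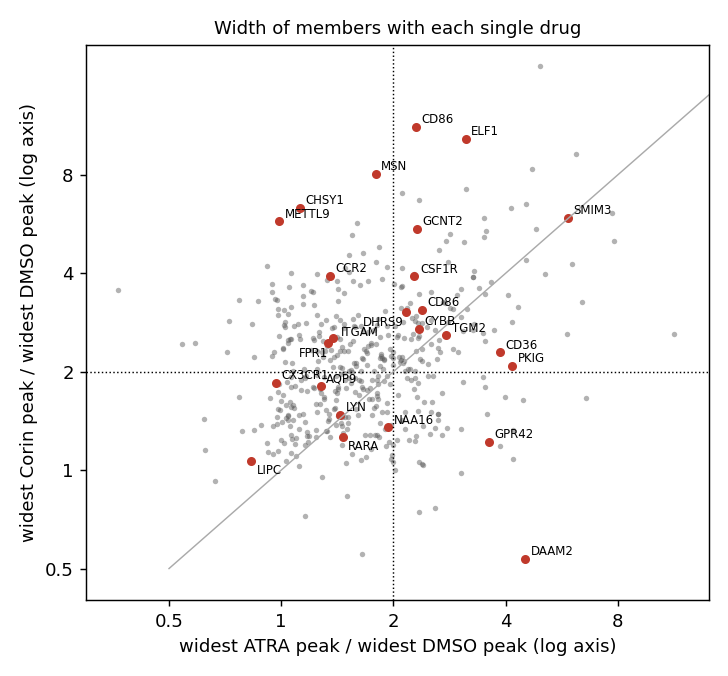
Ratio of the widest ATRA peak (x axis) and the widest Corin peak (y axis) to the widest DMSO peak, both on log axes, for the 482 members, with named members in red, dotted lines at 2-fold and a grey line of equal ratio. More points lie above the grey line (340 members wider with Corin) than below it (142 wider with ATRA).

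A broad combination peak could contain several DMSO peaks or extend a single one, and both forms were found. The widest combination peak overlapped 1 DMSO peak in 81 members (16.8%), 2 in 178, 3 in 129 and 4 or more in 94. Of the bases under these combination peaks, 48.9% were already under a DMSO peak, 17.6% lay in gaps between DMSO peaks and 33.4% lay in flanks outside them. Of the bases that were new relative to DMSO, 34.5% were gap and 65.5% were flank. Flank bases exceeded gap bases in 305 members and gap bases exceeded flank bases in 177. The summed length of all peaks in a member had a median of 2532.5 bp with DMSO, 3438.5 bp with ATRA, 4091 bp with Corin and 4841 bp with the combination. This summed length already reached 2000 bp or more with DMSO in 335 members (69.5%). The median number of peaks per member was 3 with DMSO, 2 with each single drug and 1 with the combination.

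The single drugs covered the new bases unequally. Corin peaks covered 61.0% of them and ATRA peaks 38.1%. Within the members, both drugs covered 29.2% of the new bases, Corin only 31.8%, ATRA only 8.89% and neither 30.1%. Gaps were covered more often than flanks, with 77.2% of gap bases and 52.5% of flank bases under a Corin peak and 53.2% and 30.2% under an ATRA peak. The 759 gaps had a median length of 235 bp (interquartile range 146 to 685 bp). Corin filled 502 of them from end to end (66.1%) and ATRA filled 410 (54.0%), both drugs filled 321 and neither filled 168. Bases already under a DMSO peak stayed under a peak with Corin for 97.2% and with ATRA for 95.3%.

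GC content differed between these classes of bases. It was 48.4% under DMSO peaks, 43.2% in gaps and 44.2% in flanks. CpG dinucleotides numbered 19.8 per kb under DMSO peaks, 11.7 in gaps and 11.0 in flanks. Within the members, widening with each single drug was more frequent where the combination peak overlapped more DMSO peaks. With Corin, at least 2-fold widening occurred in 39.5% of the members over 1 DMSO peak and in 71.3% of those over 4 or more. With ATRA these shares were 22.2% and 46.8%. They were not taken over other narrow regions, so nothing particular to the members is read from them.

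ITGAM gives a case of extension, since its start-site region held 1 peak in every list. On chromosome 16 from 31258857 to 31263710, the peak was 1642 bp wide with DMSO, 2264 bp with ATRA, 4155 bp with Corin and 4854 bp with the combination. IL1B, which encodes the inflammatory cytokine interleukin-1 beta, gives the case of joining. Its start-site region (chromosome 2, 112831049 to 112836786) had widest peaks of 1853, 3688, 4084 and 5738 bp in the same order, but its DMSO peaks together already covered 4990 bp. DMSO peaks covered at least 75% of the widest combination peak in 55 members and under 25% of it in 48.

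**Figure D3:**
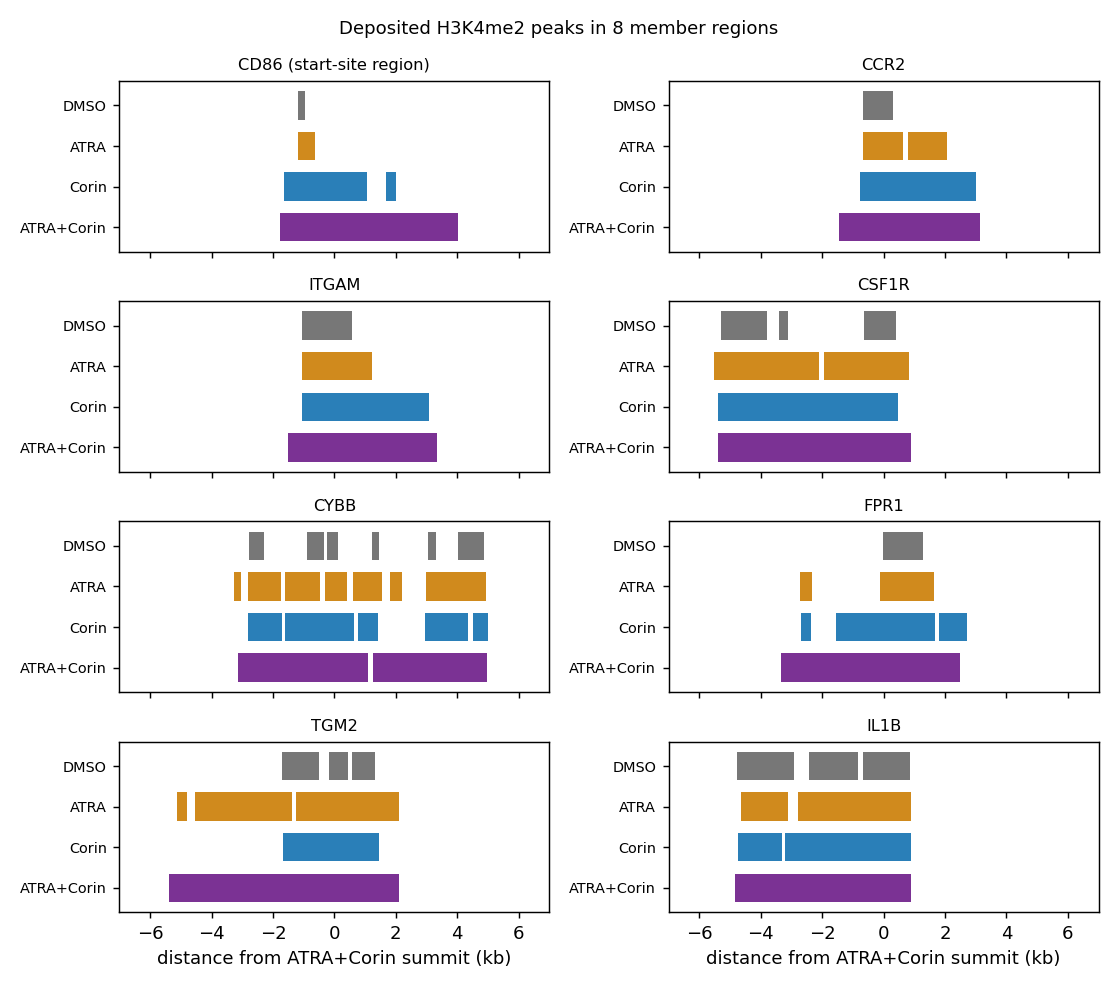
Peaks of 8 members, drawn to scale against the distance from the combination summit (x axis, kb), with 1 row for each treatment. At IL1B, TGM2 and CSF1R a single combination peak spans several DMSO peaks, whereas ITGAM holds 1 peak in every list, 1642 bp wide with DMSO and 4854 bp with the combination.

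The strength of the strongest peak of each member was set beside that of all peaks of the list. The median −log10 q of the strongest peak of a member was 40.3 with DMSO, 75.9 with ATRA, 50.1 with Corin and 72.2 with the combination. Over all peaks of the same lists the medians were 13.1, 20.4, 13.9 and 14.2. The member values take the strongest peak of a region and the list medians take every single peak, so they are not like for like. The rule also chose members for a broad combination peak. These q values are the authors' and rank peaks within a list only. The strongest summit with ATRA lay a median of 38 bp from the strongest DMSO summit, that with Corin 92.5 bp and that with the combination 261 bp. It stayed within 500 bp of the DMSO summit in 388 members with ATRA, 338 with Corin and 297 with the combination.

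Positions of the members relative to genes were then counted. A canonical protein-coding start site lay within 1 kb of 193 members (40.0%, 35.8 to 44.5%), another 193 lay in gene bodies and 96 outside genes. The share at start sites was 18.9% in the other narrow regions, but 36.2% in those of matched DMSO width. Measured from the strongest DMSO summit instead of the whole region, it was 32.2% for members and 32.2% for the width-matched regions. The members' combination summit lay in an intron in 335 cases (69.5%), in a coding exon in 27, in an untranslated region in 24, in an exon of a non-coding transcript in 19 and outside genes in 77 (15.98%). In the other narrow regions the summit lay in an intron in 58.1%, in a coding exon in 2.28% and outside genes in 33.1%. Per chromosome, the share of narrow regions that were members was highest on chromosome 20 (29 of 1122, 2.58%) and 19 (2.11%) and lowest on chromosome 21 (2 of 364, 0.549%).

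At start sites the broadening pointed into the gene, in the members and also in the other narrow regions. In the 121 members with a single start site under the combination peak, new flank was longer downstream than upstream in 96 (79.3%). The median new flank was 1089 bp downstream and 359 bp upstream, and the combination peak reached a median of 3734 bp downstream and 1135 bp upstream of the start. Among the 172 members with a single start site, the position 2 kb downstream lay under a DMSO peak in 28.5%, an ATRA peak in 48.8%, a Corin peak in 75.0% and a combination peak in 92.4%. At 2 kb upstream these shares were 14.5%, 23.8%, 27.9% and 35.5%. At the start site itself they were 69.8%, 76.7%, 68.0% and 73.8%, so the treatments differed less at the start than downstream of it. At start sites of 5255 other narrow regions, the shares 2 kb downstream were 20.2%, 25.3%, 43.8% and 47.8%. At 2 kb upstream of these starts they were 8.26%, 10.6%, 14.9% and 17.0%, so there too the lists separated more downstream than upstream. At these starts themselves the shares were 55.4%, 59.0%, 42.5% and 42.7%, lower with Corin and with the combination than with DMSO. Flank lengths are given for the members only.

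**Figure D4:**
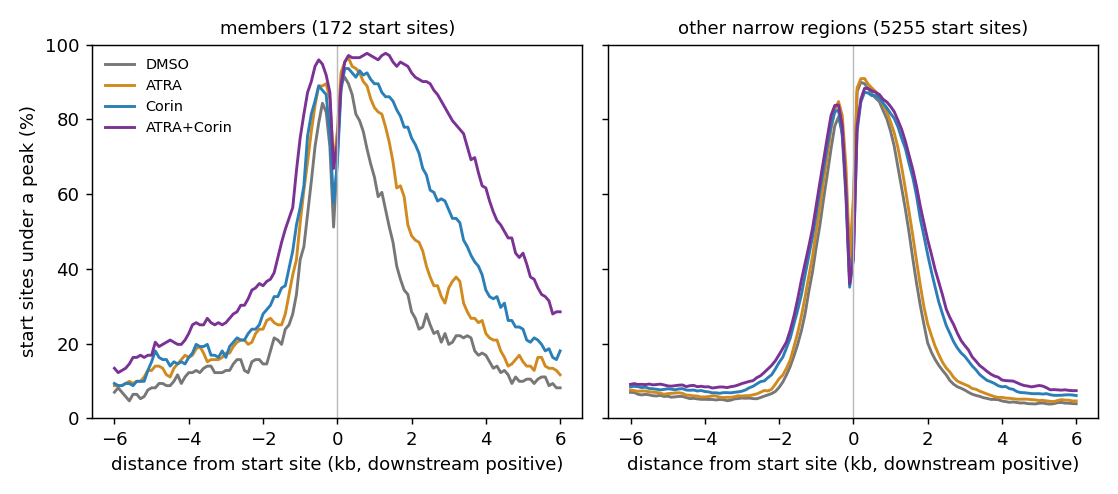
Share of start sites under a peak (%, y axis) against the distance from the start in the direction of transcription (x axis, kb), for 172 members with a single start site and for 5255 other narrow regions, with 1 line per list. In both sets the lists separate more downstream than upstream, in the members at 28.5% with DMSO and 92.4% with the combination at 2 kb. At the start itself the other narrow regions have 55.4% with DMSO and 42.7% with the combination.

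The genes at the members were described with lists of genes grouped by role. A protein-coding gene had a member over its body or start site in 423 of 19951 cases (2.12%), or in 4.14% of the 10211 genes that had a narrow region there. Monocyte and phagocyte effectors had 9 of 44 genes (20.5%), retinoid genes 4 of 24 (16.7%), inflammatory genes 3 of 25 and stem and progenitor genes 2 of 18. Myeloid transcription factors had 0 of 28, of which 9 had a narrow region. CoREST and p300 cofactors had 0 of 18, of which 13 had a narrow region, and cell cycle genes 0 of 20, of which 12 did. Longer genes offer more room for a region, and the median gene length was 18.5 kb in the effector list, 32.1 kb in the retinoid list, 82.9 kb in the cofactor list and 27.5 kb over all genes. It was 7.19 kb for the myeloid transcription factors, 13.6 kb for the cell cycle list, 9.49 kb for the inflammatory list and 49.0 kb for the stem and progenitor list.

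**Figure D5:**
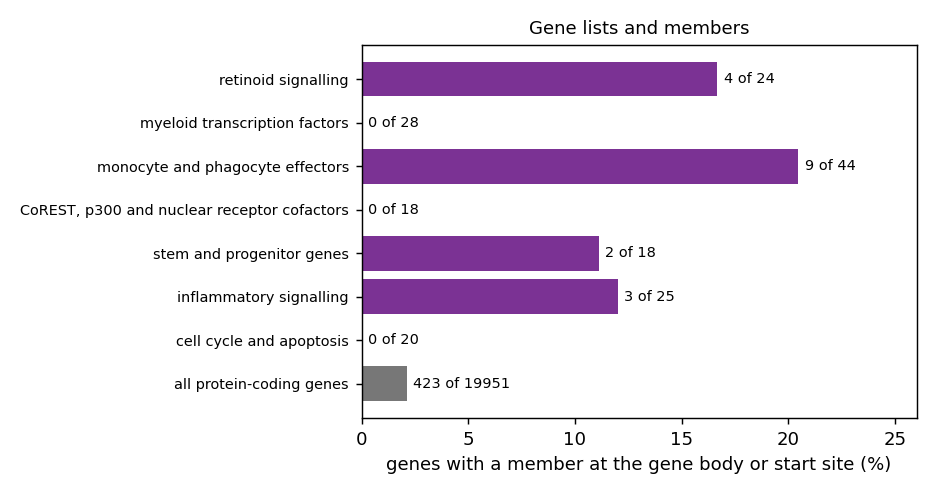
Bars give the share of genes in each list with a member over the gene body or start site (x axis, %), beside the share over all 19951 protein-coding genes (grey, 2.12%). Effector genes (9 of 44) and retinoid genes (4 of 24) have the highest shares, and each share rests on few genes.

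Among the effectors, surface receptors came first. CD86 is a costimulatory ligand of antigen-presenting cells. Its start-site region (chromosome 3, 122054775 to 122060559) had a widest peak of 242 bp with DMSO, 555 bp with ATRA, 2710 bp with Corin and 5785 bp with the combination. A second CD86 member in the gene body (chromosome 3, 122073536 to 122078953) measured 894, 2130, 2764 and 5418 bp in the same order. At both, Corin gave the wider single-drug peak and the combination was wider than either.

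CCR2, the receptor that guides monocytes out of the bone marrow, showed the same order, with little change of its widest peak under ATRA. Its member (chromosome 3, 46352930 to 46357551) measured 970 bp with DMSO, 1311 bp with ATRA, 3804 bp with Corin and 4622 bp with the combination. All CCR2 peaks together covered 970 bp with DMSO and 2589 bp with ATRA. CX3CR1, the fractalkine receptor of patrolling monocytes, measured 1624, 1574, 3000 and 5161 bp (chromosome 3, 39276033 to 39281241). CSF1R, the receptor for macrophage colony-stimulating factor, measured 1496, 3407, 5861 and 6299 bp (chromosome 5, 150080897 to 150087311). At CSF1R each single drug gave at least 2-fold widening, whereas at CX3CR1 the widest ATRA peak was slightly narrower than the widest DMSO peak. All CX3CR1 peaks together covered 2289 bp with DMSO and 3520 bp with ATRA.

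The remaining effectors serve phagocytosis and the oxidative burst. FPR1, a receptor for formylated bacterial peptides, had a member that also touched FPR2 (chromosome 19, 51747787 to 51753860) and measured 1313, 1755, 3223 and 5830 bp. CYBB, the catalytic subunit of the phagocyte NADPH oxidase, measured 834, 1947, 2255 and 4237 bp (chromosome X, 37779147 to 37787414), and its peaks numbered 6 with DMSO, 7 with ATRA, 5 with Corin and 2 with the combination.

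Of the retinoid genes, TGM2 had the broadest combination peak. Its member (chromosome 20, 38162720 to 38170221) measured 1217 bp with DMSO, 3374 bp with ATRA, 3143 bp with Corin and 7496 bp with the combination. The widest peaks of the single drugs were close in width, but all ATRA peaks together covered 6847 bp and the Corin peak 3143 bp. DHRS9, a retinol dehydrogenase, measured 1657, 3577, 5054 and 5737 bp (chromosome 2, 169068780 to 169074637). RARA, the retinoic acid receptor alpha, measured 1799, 2631, 2269 and 4022 bp (chromosome 17, 40336104 to 40340125), just past the combination threshold. The fourth gene, ALDH1A2, which makes retinoic acid, was counted through members that also lie at its neighbours AQP9 (1908, 2435, 3453 and 4874 bp, chromosome 15, 58137487 to 58142360) and LIPC (1699, 1410, 1812 and 4984 bp, chromosome 15, 58472647 to 58477774).

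The signalling and progenitor genes varied in which drug gave the wider peak. SMAD3, a transducer of transforming growth factor beta signals, had a member of 1763, 3197, 3431 and 6435 bp (chromosome 15, 67096602 to 67103036) and another of 646, 1470, 2568 and 4331 bp (chromosome 15, 67174090 to 67178420). TGFBR2, a receptor for transforming growth factor beta, measured 1278 bp with DMSO, 4656 bp with ATRA, 4799 bp with Corin and 4797 bp with the combination (chromosome 3, 30640579 to 30645839). The Corin peak matched the combination peak in width there to within a few bases, and the ATRA peak was slightly narrower. FLI1, a transcription factor of haematopoietic progenitors, measured 1769, 4047, 2176 and 4407 bp (chromosome 11, 128723715 to 128728926), with ATRA near the combination. MYB, a transcription factor of proliferating progenitors, measured 812, 1384, 3066 and 5493 bp (chromosome 6, 135193701 to 135199193), with Corin the wider single drug.

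The broadest combination peaks were assigned to other genes. UBAC2 measured 1972, 5586, 6174 and 11450 bp (chromosome 13, 99221361 to 99232934). OAS1, an interferon-induced antiviral enzyme, measured 1595, 3929, 4375 and 11139 bp (chromosome 12, 112904913 to 112916051). GCNT2, which makes branched glycans of the I blood group, measured 1753, 4054, 9602 and 9764 bp (chromosome 6, 10527840 to 10537611). At OAS1 the combination peak was over 2-fold wider than either single-drug peak, whereas at GCNT2 it was close to the Corin peak. CXCR5, a chemokine receptor best known from lymphocytes, measured 548, 3192, 1424 and 9560 bp (chromosome 11, 118878735 to 118888294). NINJ2, an adhesion protein, measured 1425, 3331, 1505 and 8958 bp (chromosome 12, 613973 to 623977). At both, the ATRA peak was the wider of the single drugs. The others of the 8 broadest were KCTD1, MBNL1 and MSN, with combination widths of 9817, 9607 and 9340 bp. The KCTD1 member lay outside protein-coding genes, 146878 bp from the KCTD1 start, which was only the nearest.

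Members with the widest Corin peaks had little widening with ATRA in several cases. CHSY1, a chondroitin synthase, measured 1580 bp with DMSO, 1778 bp with ATRA, 10002 bp with Corin and 6428 bp with the combination (chromosome 15, 101202348 to 101212363). METTL9, a methyltransferase, measured 1676, 1656, 9664 and 5919 bp (chromosome 16, 21606978 to 21616641). MSN, which links actin to the membrane, measured 1046, 1873, 8443 and 9340 bp (chromosome X, 65683963 to 65693330). ELF1, an ETS family transcription factor, measured 737, 2301, 7605 and 4412 bp (chromosome 13, 40960461 to 40968109). At CHSY1, METTL9 and ELF1 the combination peak was narrower than the Corin peak.

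Among the members with the widest ATRA peaks, CD36, PKIG and SMIM3 also widened with Corin, at ratios to DMSO of 2.29, 2.08 and 5.90. CD36, a scavenger receptor of macrophages, measured 1771 bp with DMSO, 6836 bp with ATRA, 4055 bp with Corin and 5306 bp with the combination at its start site (chromosome 7, 80637371 to 80645778). PKIG, an inhibitor of protein kinase A, measured 1489, 6204, 3099 and 7895 bp (chromosome 20, 44597581 to 44605475). SMIM3 measured 1095, 6433, 6458 and 6494 bp, nearly the same with each drug treatment (chromosome 5, 150783854 to 150790347). At CD36 the combination peak was narrower than the ATRA peak.

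In the members with the narrowest Corin peaks, the broad peak was found with the combination and, at DAAM2, also with ATRA. DAAM2, a formin of the Wnt pathway, measured 858, 3868, 460 and 4701 bp (chromosome 6, 39820620 to 39825320), so its Corin peak was narrower than its DMSO peak. GPR42, a receptor related to those for short-chain fatty acids, measured 443, 1600, 541 and 4188 bp (chromosome 19, 35374406 to 35378593, outside genes). It has a near-identical neighbour, so placement of reads there is uncertain. LYN, a kinase of the SRC family, measured 421, 607, 621 and 4159 bp (chromosome 8, 55889043 to 55893201). NAA16, an auxiliary subunit of an acetyltransferase, measured 528, 1022, 714 and 4953 bp (chromosome 13, 41324242 to 41329194).

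Several genes had more than 1 member. The 482 members were assigned to 446 genes, of which 33 had at least 2 members, and JARID2, MSN and NXT1 had 3 each. Within 50 kb of another member lay 70 members. JARID2, a cofactor of Polycomb repression, had gene-body members with combination widths of 5199, 4151 and 7155 bp and Corin widths of 3996, 2549 and 4450 bp. CLEC12A, a lectin receptor of myeloid cells, had a start-site member of 339, 713, 2391 and 6729 bp (DMSO, ATRA, Corin, combination) and a gene-body member of 1246, 1833, 4330 and 4538 bp. CEACAM1, an adhesion molecule, had a start-site member of 1074, 1733, 1826 and 7349 bp and a gene-body member of 1656, 4281, 1272 and 4191 bp. Members of 1 gene could therefore differ in which single drug gave the wider peak. JARID2, CLEC12A and CEACAM1 were chosen from the genes with several members after their values were seen.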

How the data were processed

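H3K4me2 was measured by chromatin immunoprecipitation and sequencing in 8 libraries with 4 inputs. The submitters' processing notes name Trimmomatic, Bowtie2, Picard, MACS2 and build hg38 without versions or settings. The values used are 4 deposited peak lists, 1 per treatment, called on its H3K4me2 libraries against its input. Start and end positions are the authors' and were converted to count from 1. The deposited fold enrichment over input, a ratio, and the deposited −log10 p and −log10 q are the authors' values at each summit and were compared only among peaks of 1 list; fold and p also gave the relative background. The deposited score column is derived from p and was not used further. The other deposited column, the summit offset, located each summit.

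No peak ended past a chromosome of GRCh38. Peaks were merged across lists, and the widest peak of each list was taken per region. Genes came from GENCODE release 44 (canonical protein-coding starts, 1 kb window); a region took the gene with a start within 1 kb, otherwise the gene it overlapped, otherwise the nearest. Named members were the 8 broadest with the combination, the 5 broadest with Corin, the 5 broadest with ATRA, the 4 narrowest with Corin, those at genes of the lists and those next to the thresholds; not all are described. The members, gene lists and motifs were chosen with earlier results of these data known. Sequences were read from the GRCh38 reference. Python 3.11.15, pandas 2.3.3 and pysam 0.24.0 were used, and the scripts were tested on simulated data. Peak lists give no depth per library. Alternatives were peaks within 1 kb joined, −log10 q of at least 5, equal numbers of peaks, covered length, other thresholds, folds and start windows, and, chosen after seeing the data, the distance from the DMSO summit and comparison regions of matched width. Some named members and sequences are not reported here.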

Additional observations from a re-analysis of the deposited data

How the results depend on the processing

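Every alternative kept Corin ahead of ATRA among the members. With the covered length in place of the widest peak, 191 regions met the rule and 45.5% of them had at least 2 DMSO peaks under the combination peak, compared with 83.2% of the 482. That share was 56.8% with peaks within 1 kb joined, where 19.5% lay at a start site (8.07% of all narrow regions, compared with 19.2% before joining), and 71.2% with −log10 q limited to 5 and above. Limits of 1500 and 5000 bp gave 83 regions, 71.1% widened at least 2-fold with Corin and 50.6% with ATRA. Limits of 2500 and 3500 bp gave 1461 regions, 36.4% with Corin, 20.4% with ATRA and 75.9% with at least 2 DMSO peaks. At 1.5-fold the shares were 75.5% with Corin and 57.1% with ATRA, and at 3-fold 20.5% and 11.4%. In members over 1 DMSO peak they were 39.5% and 22.2%. With all annotated starts 54.4% lay within 1 kb, and 32.2% when measured from the strongest DMSO summit, the latter added after seeing the data. The cause of these shifts was not tested. Equal numbers of peaks per list gave 481 regions, 55.1% with Corin and 33.3% with ATRA. No paired analysis was possible because each treatment has 1 pooled list, and for the same reason no replicate could be left out.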
